A study of Rattus norvegicus with 24 samples.

Results

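The opioid peptide precursor genes Penk, Pdyn, Pnoc and Pomc are the 4 genes whose messages encode the opioid and opioid-like peptides. They were taken by gene name from the 23950 genes listed for each library, and all 4 were found once, with the identifiers ENSRNOG00000008943 (Penk), ENSRNOG00000026036 (Pdyn), ENSRNOG00000014231 (Pnoc) and ENSRNOG00000012686 (Pomc). RNA-Seq values were available for the nucleus accumbens (NAc) of 24 Sprague Dawley rat pups at postnatal day 14, with 4 pups in each of 6 groups. The sources used here do not say whether the pups of a group came from separate litters, so that p-values measure only the spread between these libraries. The unit was FPKM, which scales the sequenced fragments of a gene to its length and to the fragments mapped in the library, so that levels may be compared between genes per length. All 4 genes passed the filter on low values in all 9 comparisons.

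The groups differed by what the F0 dam received by oral gavage. In the in utero group (IUO), the dams received oxycodone at 10 mg/kg/day for 5 days, with the dose raised by 0.5 mg/kg/day over 10 days to 15 mg/kg/day, and stayed on the drug through mating, gestation and nursing. In the postnatal group (PNO), the dams received 15 mg/kg/day only from birth of the litter to weaning, and the dams of the saline group (SAL) received saline. F1 pups are the offspring of these dams, and F2 pups are the offspring of F1 females and drug-naive males. No F1 animal was dosed itself, and F2 pups were thus never nursed by a dosed dam. Pups were drawn randomly from both sexes and no label names the sex of a library, so that sex cannot be told apart from the spread within a group.

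Opioid peptides are cut from larger precursor proteins by prohormone convertases and trimmed by carboxypeptidase E before release. Penk encodes the precursor of the enkephalins, which act at the delta and mu receptors. Pdyn encodes the precursor of the dynorphins, which act at the kappa receptor, Pnoc that of nociceptin, which acts at the nociceptin receptor, and Pomc that of beta-endorphin, ACTH and the melanocortins. In the striatum, Penk is best known from projection neurons of the indirect pathway and Pdyn from those of the direct pathway, while Pomc is made mainly in the pituitary and the arcuate nucleus of the hypothalamus. Oxycodone acts mainly at the mu receptor.

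Before the members, the makeup of the libraries was checked with marker genes. The summed FPKM of 7 genes of striatal projection neurons (among them Ppp1r1b, Rgs9, Bcl11b, Pde10a, Foxp1 and Ptpn5) lay between 339 and 922 in every library, so the labelled tissue was present throughout. Genes of neighbouring regions varied far more. The summed FPKM of 6 thalamus genes was 115 to 298 in F1 PNO and 17.9 to 199.8 in the other groups. For 8 hypothalamus genes it was 7.25 to 20.2 in F1 PNO, 69.4 to 176 in F1 IUO and 16.1 to 270.1 in the other groups. For 6 cortex genes it was 8.03 to 327 in F1 SAL, 21.9 to 307 in F2 PNO and 134 to 349 in the other groups. Choroid plexus genes had the widest range of these, with 7 genes at 5.32 to 82.9 in F2 SAL and 4.98 to 12274.5 in the other groups. The library of F2 PNO replicate 4 stood apart: all 11 of 11 pituitary genes on a list made after its values were seen were at their highest there, among them Gh1, growth hormone, at 4682 FPKM against at most 4.79 in any of the other 23 libraries. The fold changes of the members that this library enters are given with and without it.

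Penk was the most abundant of the precursors. Its mean over the 8 saline libraries was 219 FPKM, rank 330 of 23950 genes, and its values over all 24 libraries lay between 81.5 and 326. In F1 SAL the 4 libraries held 116, 249.7, 322 and 251 FPKM of Penk. The F1 PNO libraries held 194, 136, 176 and 179.6 FPKM. In the F1 IUO libraries, Penk stood at 249, 326, 229.8 and 249 FPKM. All 4 F1 IUO libraries were thus above all 4 F1 PNO libraries, while the F1 SAL libraries spanned both. The F2 SAL libraries held 231, 250.1, 173 and 157 FPKM of Penk. In F2 PNO the values were 289.5, 253, 202 and 194 FPKM, and in F2 IUO they were 81.5, 215, 116 and 276 FPKM. The F2 IUO group held both the lowest library of the series and the second highest of its generation, and its SD of 89.3 FPKM (n = 4) around a mean of 172 was the widest.

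Pdyn followed at a mean of 41.8 FPKM in the saline libraries, rank 1922. The F1 SAL libraries held 20.4, 40.5, 61.0 and 55.5 FPKM of Pdyn. F1 PNO libraries held 25.5, 22.3, 19.1 and 30.6 FPKM, and F1 IUO libraries 45.2, 60.1, 38.3 and 43.0 FPKM. As with Penk, all F1 IUO libraries were above all F1 PNO libraries, and F1 SAL replicate 1 lay among the F1 PNO values. In F2 SAL, Pdyn stood at 44.4, 54.2, 31.9 and 26.8 FPKM. The F2 PNO values were 59.3, 40.9, 36.4 and 31.7 FPKM and those of F2 IUO 21.9, 41.2, 28.9 and 53.0 FPKM. The 3 F2 groups overlapped for Pdyn. The stretch of 120 bases just before the RefSeq start of Pdyn (GRCr8, chr3:137366504-137366623, minus strand) is shown because Pdyn gave the smallest p of the members, and that of Pomc (GRCr8, chr6:32659233-32659352, plus strand) because its level departed most in a single library. Both read 5′ to 3′ on the gene's strand, with the letters TATAAA, the core of a TATA box, in capitals.
Pdyn: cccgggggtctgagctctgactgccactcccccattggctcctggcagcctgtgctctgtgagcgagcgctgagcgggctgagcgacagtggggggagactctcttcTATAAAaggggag
Pomc: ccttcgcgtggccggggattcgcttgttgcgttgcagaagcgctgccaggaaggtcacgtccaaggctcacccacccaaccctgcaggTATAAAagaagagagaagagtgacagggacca
The first T of these letters lay 13 bases before the start in Pdyn and 32 bases before it in Pomc. Whether the letters serve as a TATA box in either gene was not tested. On the gene's strand, as marked here, TATAAA stood in 4.38% of the 33469 RefSeq promoters over the same 120 bases. Searched on both strands, it stood in 6.66% of these promoters. The letters TGACG, the half-site of a cAMP response element, stood on either strand in 11.5% of them and in neither of these 2 stretches.

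Pnoc was lower, with a mean of 7.08 FPKM in the saline libraries (rank 7859). Its F1 SAL libraries held 6.69, 6.15, 8.23 and 6.75 FPKM. The F1 PNO libraries held 3.58, 6.20, 6.99 and 5.74 FPKM of Pnoc, and the F1 IUO libraries 5.40, 7.79, 6.98 and 8.94 FPKM. All 3 F1 groups overlapped. In F2 SAL the Pnoc values were 6.27, 6.73, 8.55 and 7.26 FPKM. F2 PNO libraries held 8.91, 5.66, 5.94 and 10.4 FPKM, and F2 IUO libraries 13.6, 10.8, 13.3 and 7.65 FPKM. In F2 IUO, 3 of 4 libraries were above every F2 SAL and every F2 PNO library, and the fourth, replicate 4, lay among them.

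Pomc was the least abundant, with a mean of 1.96 FPKM in the saline libraries (rank 12044), and lay between 1.09 and 5.38 FPKM in 23 libraries. The F1 SAL libraries held 1.62, 1.52, 2.76 and 1.49 FPKM of Pomc, the F1 PNO libraries 1.5, 1.61, 2.53 and 2.0 FPKM, and the F1 IUO libraries 1.09, 1.11, 2.33 and 3.65 FPKM. The F1 groups overlapped. In F2 SAL its values were 2.42, 2.33, 1.51 and 2.01 FPKM, and in F2 IUO 4.39, 2.06, 5.38 and 4.21 FPKM. The F2 PNO libraries held 2.21, 2.33, 1.67 and 818 FPKM. The last of these, replicate 4, was 152 times the next highest library of the series, while its Penk (194 FPKM), Pdyn (31.7 FPKM) and Pnoc (10.4 FPKM) lay within the range of the other 23 libraries.

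**Figure D1:**
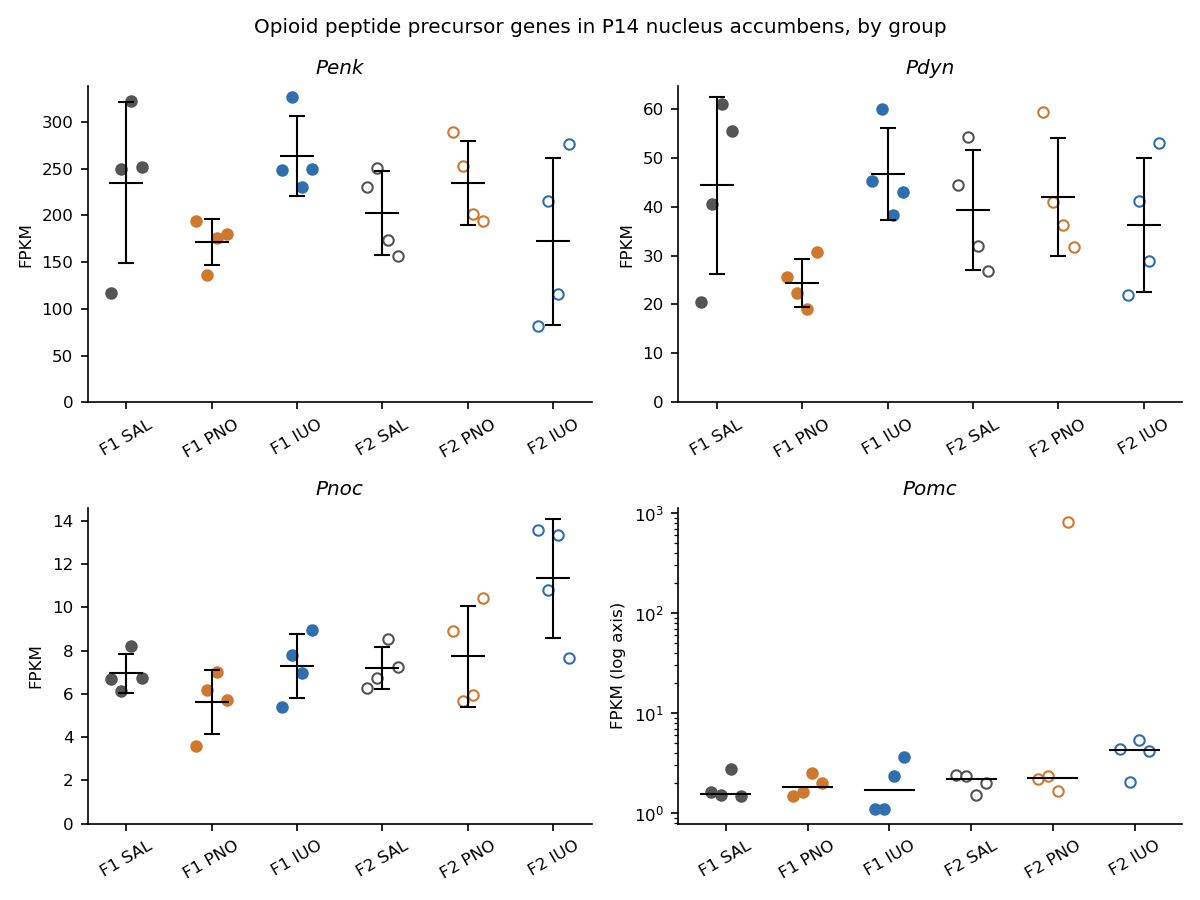
FPKM of Penk, Pdyn, Pnoc and Pomc in each of the 24 libraries by group, with filled points for F1 and open points for F2. Bars give the mean ± SD of 4 libraries on axes that start at 0, except for Pomc, where the axis is logarithmic and the bar is the median. For Penk and Pdyn the F1 IUO points all lie above the F1 PNO points, and 1 F2 PNO point for Pomc stands at 818 FPKM.

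Ordered by group mean, both Penk and Pdyn ran from F1 IUO (263 ± 42.7 and 46.6 ± 9.41 FPKM, SD, n = 4) through F1 SAL, F2 PNO, F2 SAL and F2 IUO to F1 PNO (171 ± 24.8 and 24.4 ± 4.92 FPKM). Pnoc ran from F2 IUO (11.3 ± 2.75 FPKM) through F2 PNO, F1 IUO, F2 SAL and F1 SAL to F1 PNO (5.63 ± 1.46 FPKM). For Pomc, with F2 PNO replicate 4 left out, F2 IUO was highest (4.01 ± 1.40 FPKM) and the other 5 group means lay between 1.85 and 2.07 FPKM. Every pair of neighbouring groups in these orders had overlapping libraries. Between neighbours, the difference of means exceeded the larger SD only from F2 IUO to the group after it, at 3.60 FPKM against an SD of 2.75 for Pnoc and 1.94 FPKM against 1.40 for Pomc. For Penk, Pdyn and Pnoc these orders include F2 PNO replicate 4. Without that library, F2 PNO came before F1 SAL for Penk and Pdyn, and between F1 SAL and F1 PNO for Pnoc.

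The first question was whether exposure during pregnancy or nursing was accompanied by a difference from saline in F1. Fold changes are on the scale of log2(FPKM + 0.1), the tests are limma's with Benjamini-Hochberg adjustment over all genes tested, and values in parentheses are standard errors. Between F1 IUO and F1 SAL, 0 of 4 members had an adjusted p under 0.05, as had 0% of the 17380 genes tested, and 0 had an unadjusted p under 0.05, against a background of 3.91%. The log2 fold changes were 0.25 (0.279) for Penk, 0.17 (0.312) for Pdyn, 0.05 (0.176) for Pnoc and 0.01 (0.400) for Pomc. These are smaller than their errors, and the 95% interval for Penk, -0.38 to 0.87, includes differences of nearly a doubling. F1 SAL replicate 1 was far below its group for Penk and Pdyn, and without it their log2 fold changes were -0.06 and -0.17. The mean log2(FPKM + 0.1) of 7 choroid plexus genes was 4.90 in that library and -0.27, -0.33 and -0.64 in the rest of F1 SAL. Whether this bears on its Penk and Pdyn was not tested.

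The mean of Pdyn was 24.4 ± 4.92 FPKM in F1 PNO against 44.4 ± 18.2 FPKM in F1 SAL (SD, n = 4). The log2 fold change was -0.77 (0.315), with an unadjusted p of 0.0371 and an adjusted p of 0.324 in limma, and did not pass. This was 1 of 4 members at an unadjusted p under 0.05, where 13.9% of all genes were, and none of the members passed the adjusted threshold, nor did any gene (0%). F1 SAL replicate 1, at 20.4 FPKM, lay within the F1 PNO range. Without this library the log2 fold change of Pdyn was -1.10 (0.191, adjusted p = 0.114, limma) and that of Penk -0.68 (0.150, adjusted p = 0.117), and with it that of Penk was -0.38 (0.279, adjusted p = 0.571). Without F1 SAL replicate 3, the highest of its group, they were -0.57 (0.315, unadjusted p = 0.104) for Pdyn and -0.19 (0.271) for Penk, and in 6 of the 8 fits that left out 1 library no member had an unadjusted p under 0.05. The mean log2(FPKM + 0.1) of the 6 cortex genes was -0.38 in F1 SAL replicate 3 and 1.59 to 3.92 in the rest of F1 SAL. Pnoc gave -0.33 (0.204) and Pomc 0.06 (0.252). Thalamus genes moved with this comparison: 5 of 6 were higher in F1 PNO and 0 lower at an unadjusted p under 0.05, and 4 of 7 hypothalamus genes were lower. With the level of striatal projection neuron genes as a covariate, the values were -0.32 (0.263) for Pdyn and 0.06 (0.201) for Penk. In these bulk samples, fewer cells of a type and less RNA per cell cannot be told apart.

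F1 IUO against F1 PNO compares exposure that began before conception with exposure from birth, and here Penk and Pdyn both had higher means in IUO. The means were 263 ± 42.7 against 171 ± 24.8 FPKM for Penk, a ratio of 1.54, and 46.6 ± 9.41 against 24.4 ± 4.92 FPKM for Pdyn, a ratio of 1.91 (SD, n = 4). The log2 fold change was 0.62 (0.147) for Penk, with an adjusted p of 0.123, and 0.93 (0.176) for Pdyn, with an adjusted p of 0.0853 (limma), so that neither passed. Their unadjusted p values were 0.00200 and 0.000417, which made 2 of 4 members at an unadjusted p under 0.05, against 16.5% of all genes, and 0.133% of genes passed after adjustment. Neither gene had overlapping libraries, as was the case for 10.5% of all genes, and the exact permutation test gave p = 0.0286, the smallest that 4 against 4 allows (two-sided, adjusted p = 0.257 over 36 tests). Pnoc gave 0.38 (0.232) and Pomc -0.05 (0.386).

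Several marker lists differed between the same F1 libraries. Of the indirect pathway genes, 4 of 5 were higher in F1 IUO at an unadjusted p under 0.05 and none lower, with a median log2 fold change of 0.73 where the median of all genes was 0.03. Adora2a, an adenosine receptor, stood at 90.6, 76.1, 58.4 and 52.3 FPKM in F1 IUO and at 45.2, 33.8, 39.5 and 46.2 FPKM in F1 PNO, without overlap. The direct pathway genes had 0 of 5 at an unadjusted p under 0.05 and a median of 0.25. Of the striatal projection neuron genes 5 of 7 were higher and none lower (median 0.42), and of the GABA interneuron genes 3 of 8 were higher and none lower (median 0.16). Hypothalamus genes were higher in F1 IUO for 6 of 7 tested and thalamus genes lower for 4 of 6, with medians of 3.39 and -1.53, and of these genes Avp, vasopressin, passed after adjustment (log2 fold change 3.80, SE 0.541, adjusted p = 0.0468, limma). The summed thalamus genes overlapped (26.7 to 138 against 115 to 298 FPKM), while the summed hypothalamus genes did not (69.4 to 176 against 7.25 to 20.2 FPKM). With hypothalamus genes as a covariate, Pdyn gave 0.94 (0.445) and Penk 0.48 (0.365). With striatal projection neuron genes as a covariate they gave 0.78 (0.180) and 0.48 (0.144), and 3 of 4 members had an unadjusted p under 0.05, Pnoc among them (0.68, SE 0.185). With the same list without Bcl11b, changed after seeing the data, Pdyn gave 0.49 (0.218) and Penk 0.36 (0.211), and 1 of 4 members, Pnoc (0.84, SE 0.327), had an unadjusted p under 0.05. What part these tissue differences have in the values of Penk and Pdyn was not tested further.

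**Figure D2:**
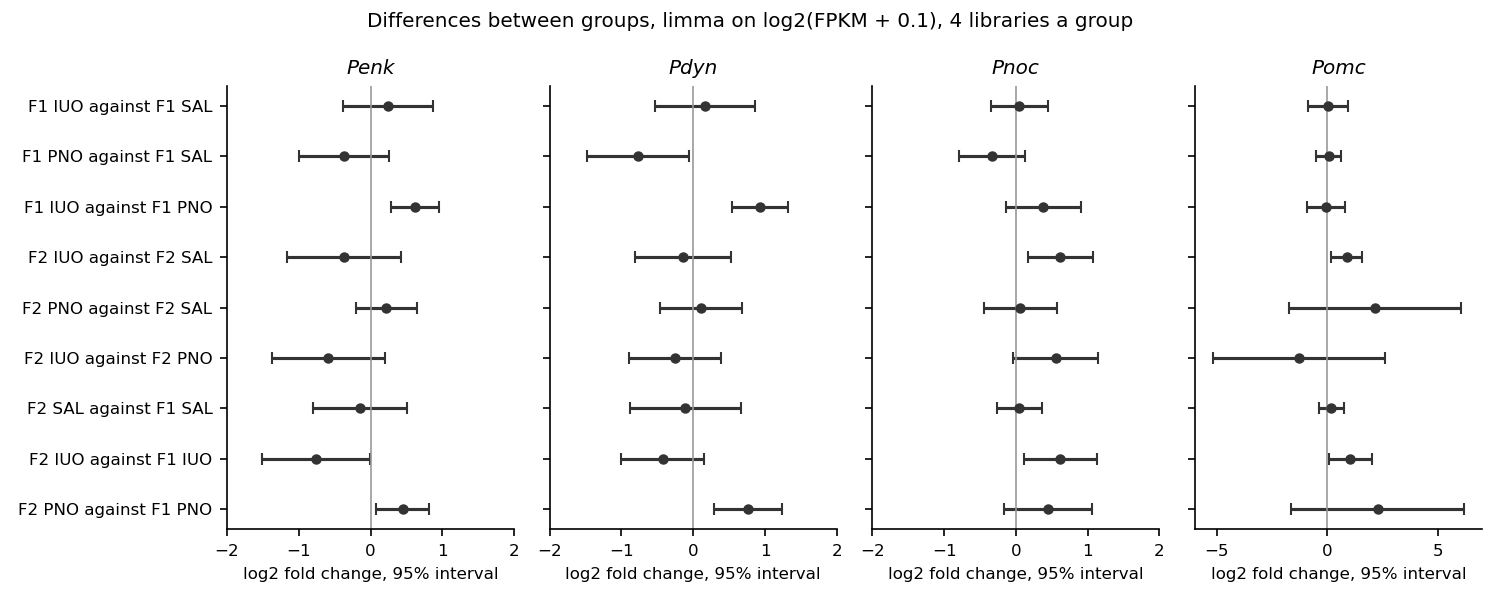
Log2 fold change of each precursor gene in the 9 comparisons (points) with its 95% interval from limma (bars), on log2(FPKM + 0.1) with 4 libraries a group. Pdyn in F1 IUO against F1 PNO, at 0.93, lies farthest from 0 in units of its error, and the 3 wide intervals of Pomc are those with F2 PNO replicate 4.

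In F2 the question was whether any difference was seen a generation after the exposure. Pnoc and Pomc had higher means in F2 IUO than in F2 SAL, at 11.3 ± 2.75 against 7.20 ± 0.985 FPKM and 4.01 ± 1.40 against 2.07 ± 0.411 FPKM (SD, n = 4). The log2 fold changes were 0.62 (0.201) for Pnoc, with an adjusted p of 0.543, and 0.87 (0.312) for Pomc, with an adjusted p of 0.553 in limma, and neither passed. With unadjusted p values of 0.0121 and 0.0204 these were 2 of 4 members at an unadjusted p under 0.05, against 8.49% of all genes, and 0% of genes passed after adjustment. In each case 3 of the 4 F2 IUO libraries were above all F2 SAL libraries. Penk gave -0.37 (0.352) and Pdyn -0.14 (0.297). In these libraries 4 of 6 cortex genes and 2 of 3 tested entries of the blood list were higher in F2 IUO at an unadjusted p under 0.05. Of the blood entries, 2 share the gene name Hba-a2. At that threshold 0 of 7 hypothalamus genes were higher. The medians of these lists were 0.79, 1.66 and 0.84 in the order given. Lower were 2 of 7 striatal projection neuron, 2 of 5 direct pathway and 2 of 8 GABA interneuron genes. With striatal projection neuron genes as a covariate, Pnoc gave 0.35 (0.187) and Pomc 0.73 (0.377), without Bcl11b 0.30 (0.242) and 0.46 (0.399), and 0 of 4 members had an unadjusted p under 0.05 in either fit.

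No member had an unadjusted p under 0.05 between F2 PNO and F2 SAL (background 10.8%, with 0.00576% of genes after adjustment). Penk gave 0.22 (0.190), Pdyn 0.11 (0.255) and Pnoc 0.06 (0.225). The log2 fold change of Pomc was 2.15 (1.74, adjusted p = 0.657, limma), and without F2 PNO replicate 4 it was 0.01 (0.261), so that the value rests on that library. Without it, Penk gave 0.30 (0.201), Pdyn 0.23 (0.268) and Pnoc -0.09 (0.208).

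Between F2 IUO and F2 PNO also, 0 of 4 members had an unadjusted p under 0.05, against 7.07% of all genes. The log2 fold changes were -0.59 (0.351) for Penk, -0.25 (0.287) for Pdyn, 0.56 (0.263) for Pnoc and -1.29 (1.74) for Pomc. Leaving out F2 PNO replicate 4 turned the Pomc value to 0.86 (0.361, unadjusted p = 0.0438, adjusted p = 0.562, limma). The value of Pnoc without it was 0.72 (0.262, unadjusted p = 0.0245, adjusted p = 0.522), so that 2 of 4 members then had an unadjusted p under 0.05, as had 1446 of 16668 genes. Of the cortex genes 5 of 6 were then higher in F2 IUO at an unadjusted p under 0.05, and 0 of 6 with the library in. Without it, the value of Penk was -0.67 (0.392) and that of Pdyn -0.37 (0.307).

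In that library, Pomc stood beside transcripts of the pituitary, as the plot of pituitary genes shows. Cga, the alpha subunit shared by the glycoprotein hormones, was at 633 FPKM there and at most 0.41 in the other 23 libraries. Tshb, the beta subunit of thyrotropin, was at 387 against at most 1.40 FPKM, and Prl, prolactin, at 150.4 against at most 0.61 FPKM. Tbx19, a transcription factor of Pomc-expressing pituitary cells, stood at 5.25 against at most 1.34 FPKM. Pax7 and Fshb were listed at 0 in all 23 other libraries and at 1.04 and 1.75 FPKM in this one. The summed FPKM of the 11 genes was 5945 there and between 0.92 and 13.9 elsewhere.

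**Figure D3:**
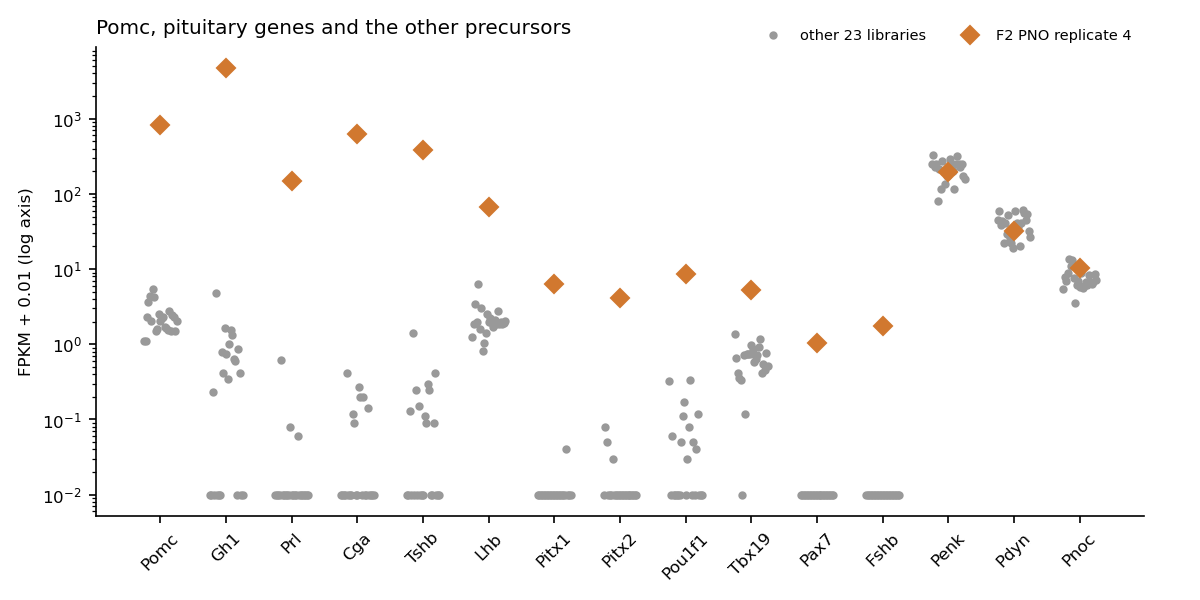
FPKM + 0.01 on a log axis of Pomc, 11 pituitary genes and the other 3 precursors, with F2 PNO replicate 4 as diamonds and the other 23 libraries as grey points. The diamond is above every grey point for Pomc and all 11 pituitary genes and within them for Penk, Pdyn and Pnoc.

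Generations were compared within each treatment. Between F2 SAL and F1 SAL, 0 of 4 members had an unadjusted p under 0.05 (background 8.48%, with 0.0343% of genes after adjustment), with log2 fold changes from -0.15 (0.294) for Penk to 0.18 (0.248) for Pomc. In the PNO animals, Penk and Pdyn had higher means in F2, and all 4 F2 PNO libraries were above all 4 F1 PNO libraries for each. The log2 fold changes were 0.45 (0.164, adjusted p = 0.948) for Penk and 0.76 (0.212, adjusted p = 0.838) for Pdyn in limma, which did not pass. These were 2 of 4 members at an unadjusted p under 0.05 (background 4.76%, with 0.0288% of genes after adjustment) and 2 of 4 without overlap (background 3.34%, exact permutation p = 0.0286, adjusted p = 0.257). Without F2 PNO replicate 4 they were 0.53 (0.169) and 0.89 (0.213). Pnoc gave 0.45 (0.271), and 0.29 (0.272) without that library. Pomc gave 2.27 (1.74), and 0.12 (0.269) without it. Indirect pathway genes were higher in F2 PNO for 3 of 5, and thalamus genes lower for 2 of 6, at an unadjusted p under 0.05, and without that library for 2 of 5 and 1 of 6.

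In the IUO animals, 3 of 4 members had an unadjusted p under 0.05 between generations, against 15.0% of all genes, and 0% of genes had an adjusted p under 0.05. Penk was lower in F2 (log2 fold change -0.76, SE 0.337, adjusted p = 0.328), and Pnoc (0.62, SE 0.228, adjusted p = 0.264) and Pomc (1.03, SE 0.438, adjusted p = 0.311) were higher, none past limma's adjusted threshold. Pdyn gave -0.42 (0.259). The count was 0 of 4 when F1 IUO replicate 1, F2 IUO replicate 1 or F2 IUO replicate 3 was left out. Of the striatal projection neuron genes, 4 of 7 were lower in F2 IUO at an unadjusted p under 0.05 and none higher. With those genes as a covariate, Penk gave -0.21 (0.239), Pnoc 0.32 (0.205) and Pomc 0.55 (0.444), and no member had an unadjusted p under 0.05.

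The difference between IUO and PNO was itself compared between generations, as an interaction. For Penk the log2 difference was 0.62 in F1 and -0.59 in F2, an interaction of -1.21 (0.408, unadjusted p = 0.00941, adjusted p = 0.821, limma). For Pdyn it was 0.93 in F1 and -0.25 in F2, an interaction of -1.19 (0.359, unadjusted p = 0.00465, adjusted p = 0.793). This made 2 of 4 members at an unadjusted p under 0.05, where 5.76% of the 18405 genes tested were, and 0% of genes passed after adjustment. For IUO against saline, 0 of 4 members had an unadjusted p under 0.05 (background 5.15%), nor had any for PNO against saline (background 4.06%). For PNO against saline, 12 of the 16 fits that left out 1 library also had none. Without F1 SAL replicate 1 there were 2 of 4, where 833 of 18486 genes were. These were Penk (0.90, limma unadjusted p = 0.00355) and Pdyn (1.21, limma unadjusted p = 0.00376), and neither passed after adjustment. Without F2 PNO replicate 4 the interactions of IUO against PNO were -1.29 (0.431) for Penk and -1.31 (0.368) for Pdyn, and for PNO against saline 1 of 4 members, Pdyn, had an unadjusted p under 0.05 (0.997, SE 0.456, unadjusted p = 0.0459, adjusted p = 0.914, limma). The median log2 fold change of the indirect pathway genes for IUO against PNO was 0.73 in F1 and -0.31 in F2. With striatal projection neuron genes as a covariate, added after seeing the data, the interactions of IUO against PNO were -1.03 (0.397) for Penk and -1.09 (0.372) for Pdyn. Without Bcl11b in that list they were -0.45 (0.455, unadjusted p = 0.343) and -0.62 (0.426, unadjusted p = 0.167).

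Over the 24 libraries, Penk and Pdyn varied together. Pearson's r of their log2 levels was 0.864 and Spearman's rho 0.916, each with a permutation p of 1e-05, the smallest that 100000 permutations can give (34 relations, adjusted p = 0.000113 and 0.000170). After centring on the group means r was 0.910, without the 2 libraries farthest from the median of Penk it was 0.917, and without F2 PNO replicate 4 it was 0.866. F1 IUO replicate 3, F2 IUO replicate 1 and F1 SAL replicate 1 were the lowest of their groups for both genes. So were F2 PNO replicate 4 and F2 SAL replicate 4. In the order given, the mean log2(FPKM + 0.1) of choroid plexus genes there was 5.55, 5.41, 4.90, 5.25 and 0.15. These were the highest of each group, except in F2 SAL. In F1 PNO it was highest in replicate 3 (4.43), the lowest of that group for Pdyn but not for Penk. Whether choroid plexus bears on either gene was not tested. Pdyn amounted to 17.6 ± 0.817% of Penk in F1 IUO, 14.4 ± 2.88% in F1 PNO, 18.7 ± 2.52% in F1 SAL, 22.5 ± 3.93% in F2 IUO, 17.7 ± 2.0% in F2 PNO (18.2 ± 2.17% in its other 3 libraries) and 19.1 ± 1.91% in F2 SAL (SD, n = 4). Of the 9 comparisons of this percentage, added after seeing the data, only F2 IUO against F1 IUO had no overlap (exact permutation p = 0.0286, adjusted p = 0.257).

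**Figure D4:**
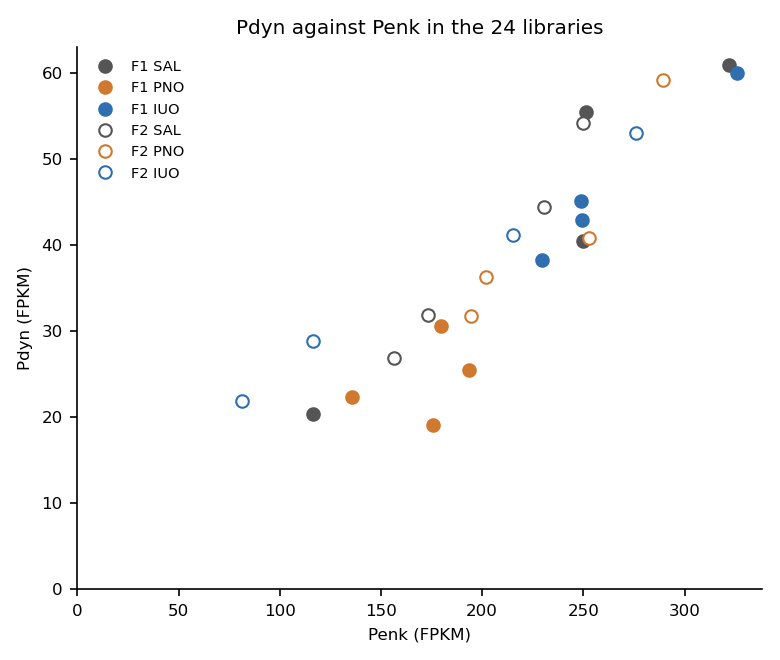
Pdyn against Penk in FPKM in the 24 libraries, with filled points for F1 and open points for F2, on axes that start at 0. Libraries high for one gene are high for the other (r = 0.864 on the log2 scale). The F1 PNO points lie toward the lower left, and F1 SAL replicate 1 and F2 IUO replicates 1 and 3 lie lower than all of them for Penk.

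Both genes also varied with marker lists of the libraries. The mean log2 level of the 5 indirect pathway genes had r = 0.833 with Penk and 0.868 with Pdyn (permutation adjusted p = 0.000113 for both), with rho of 0.812 and 0.897. That of the 5 direct pathway genes had r = 0.802 with Penk and 0.673 with Pdyn (permutation adjusted p = 0.000170 and 0.00147), with rho of 0.694 and 0.662. The 6 thalamus genes ran the other way, with r = -0.614 for Penk and -0.749 for Pdyn (permutation adjusted p = 0.00476 and 0.000340, rho = -0.697 and -0.730). Without the 2 libraries farthest from the median of each list, these 6 values of r were 0.820, 0.863, 0.671, 0.579, -0.613 and -0.711 in the order given, and without F2 PNO replicate 4 they were 0.834, 0.874, 0.804, 0.670, -0.633 and -0.787. All values of one library share its dissection and its scaling, so that these relations do not separate the genes' own levels from the makeup of the sample.

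**Figure D5:**
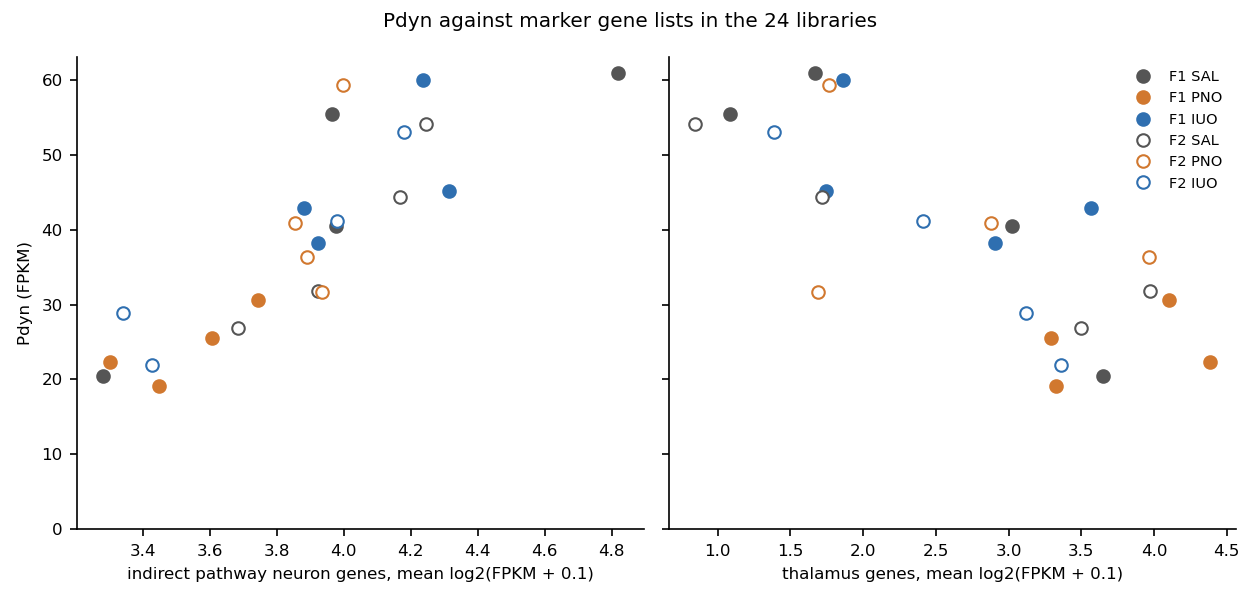
Pdyn in FPKM against the mean log2(FPKM + 0.1) of 5 indirect pathway genes (left) and 6 thalamus genes (right) in the 24 libraries, with filled points for F1 and open points for F2. Pdyn is higher where the indirect pathway genes are higher (r = 0.868) and lower where the thalamus genes are higher (r = -0.749).

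The relations of Pnoc with Penk (r = -0.313, rho = -0.095, permutation adjusted p = 0.305 and 0.787) and with Pdyn (r = 0.003, rho = 0.072, permutation adjusted p = 0.988 and 0.810) did not pass. Pnoc varied with the 8 hypothalamus genes, with r = 0.612 and rho = 0.626 (permutation adjusted p = 0.00506 and 0.00510), with r = 0.538 without the 2 farthest libraries and 0.660 without F2 PNO replicate 4. Its r with the 8 GABA interneuron genes was -0.119 (rho = 0.021, permutation adjusted p = 0.823 and 0.952). Pnoc and Pomc had r = 0.425 and rho = 0.576 (permutation adjusted p = 0.171 and 0.0139), and r = 0.628 without F2 PNO replicate 4.

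Among the 13676 genes with a mean of at least 1 FPKM, those most like each member by Pearson's r over the 24 libraries were named, as a description. For Penk these were Adora2a (0.895), Scn4b (0.884), Rgs9 (0.874), Kcnab1 (0.865) and Pdyn (0.864). For Pdyn they were Gpr6 (0.888), Penk (0.864), Hpca (0.854), Rxrg (0.846) and Ramp1 (0.842), and without F2 PNO replicate 4 Scn4b (0.866) and Drd2 (0.865) stood in place of Hpca and Ramp1. Pnoc was closest to Tppp3 (0.902), Rrad (0.842), Gnas (0.804), Cd151 (0.797) and Abhd16a (0.772), and without that library Ndn (0.797) and Rhbdd3 (0.788) stood in place of the last 2. The 5 genes closest to Penk were the same without it. Pomc was closest to Prl (0.945), Cga (0.918), Tshb (0.911), Lhb (0.899) and Capn6 (0.853), and without F2 PNO replicate 4 its closest genes included Saraf (0.810), Ech1 (0.809), Nudt8 (0.799) and LOC103690005 (0.793). All genes of a library share its depth and dissection in these values.

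The receptors of these peptides were low per length. The nociceptin receptor Oprl1 was highest, between 3.75 FPKM in F2 IUO replicate 4 and 8.37 FPKM in F1 SAL replicate 4. The kappa receptor Oprk1 lay between 0.47 and 2.86 FPKM and the delta receptor Oprd1 between 0 and 2.34 FPKM. The mu receptor Oprm1 lay between 0 and 0.46 FPKM and was listed at 0 in F2 IUO replicate 4.

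Oprl1 was lower in F1 PNO, at 4.74, 5.73, 6.03 and 5.99 FPKM, than in F1 SAL, at 7.27, 7.67, 8.25 and 8.37 FPKM, and F1 IUO, at 6.94, 7.49, 8.27 and 7.11 FPKM. The F1 PNO libraries did not overlap with either group, as for 8.27% of all genes against F1 SAL. The log2 fold change was -0.49 (SE 0.119, adjusted p = 0.231) against saline and 0.40 (0.133, adjusted p = 0.194) for IUO over PNO in limma, and neither passed. Oprd1 stood at 2.34, 1.49, 1.38 and 1.44 FPKM in F1 IUO and at 0.89, 0.13, 1.10 and 0.53 FPKM in F1 PNO, also without overlap (1.42, SE 0.493, adjusted p = 0.211). Against F1 SAL, Oprd1 in F1 IUO gave 0.84 (0.314, adjusted p = 0.999). In the 3 F2 comparisons and the 3 between generations, 0 of 4 receptors had an unadjusted p under 0.05.

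The 7 genes of precursor processing include the convertases, carboxypeptidase E and an inhibitor. Their median log2 fold change lay between -0.08 in F1 IUO against F1 PNO and 0.13 in F2 IUO against F1 IUO. Cpe, carboxypeptidase E, was higher in F1 PNO (585, 639, 767 and 651 FPKM) than in F1 SAL (566, 545, 549 and 544 FPKM), also without overlap (log2 fold change 0.25, SE 0.107, adjusted p = 0.333, limma). Pcsk1, prohormone convertase 1, was at 2.36, 2.69, 2.45 and 2.16 FPKM in F2 IUO and at 1.54, 1.57, 1.73 and 1.46 FPKM in F2 SAL, without overlap as for 5.11% of all genes (0.58, SE 0.207, adjusted p = 0.553). Pcsk1n, an inhibitor of that convertase, had a log2 fold change of 0.63 (0.154, adjusted p = 0.431) in F2 IUO against F2 PNO, and 0.73 (0.149, adjusted p = 0.400) without F2 PNO replicate 4.

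Of the 5 genes that break the peptides down, 1 was higher and 1 lower in F1 IUO against F1 PNO at an unadjusted p under 0.05, 1 was lower in F2 SAL against F1 SAL, and there was none in the other 7 comparisons. Among 9 regulators linked to these genes, Kcnip3, which encodes DREAM, a calcium-binding repressor of Pdyn, was lower in F2 PNO (14.0, 19.6, 16.4 and 21.6 FPKM) than in F2 SAL (30.6, 30.7, 23.4 and 28.7 FPKM), without overlap as for 7.01% of all genes. Its log2 fold change was -0.67 (0.161, adjusted p = 0.347, limma), or -0.77 (0.158, adjusted p = 0.145) without F2 PNO replicate 4, while Pdyn in the same comparison gave 0.11 (0.255). Jund, a member of the AP-1 family, was higher in F2 IUO (118, 105, 119 and 114 FPKM) than in F1 IUO (97.1, 79.6, 86.4 and 97.0 FPKM), without overlap as for 10.7% of all genes (0.35, SE 0.107, adjusted p = 0.236). None of these genes passed after adjustment.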

How the data were processed

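The authors extracted NAc RNA, sequenced it and deposited 1 FPKM value per gene and library. The authors merged transcriptomes and estimated levels with StringTie, and the submitters' processing notes also list HISAT2, SAMtools and edgeR. The genome build is not given in the sources used here. Values are rounded to 0.01, summed to between 535866 and 766781 FPKM per library, and left 4782 to 7532 genes at 0. The number of reads is unknown, so no counting error or detection floor is given. The edgeR test the authors used needs counts, so limma was used here.

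The FPKM values as deposited were tested on log2(FPKM + 0.1) with limma 3.58.1 in R 4.3.3 (lmFit, eBayes with a trend) for genes at 0.1 FPKM or more in at least 4 of the 8 libraries compared, in 6 comparisons within and 3 between generations and 3 interactions. A pseudocount understates changes of low genes. Tests were two-sided with Benjamini-Hochberg adjustment. An exact permutation test (35 splits) was run on single genes, and correlations were tested by 100000 permutations in Python 3.11.15 with numpy 2.4.6, scipy 1.17.1 and pandas 2.3.3. Figures used matplotlib 3.10.9. The limma step was tested on simulated data.

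The members and gene lists were chosen with earlier results of these data known. The genes named are the members, the receptors, up to 3 genes per list and comparison with an unadjusted p under 0.05 and no overlap, of which those closest to the members are given, and the 5 genes most like each member. The pituitary list was added after seeing values. Some genes of the lists are not reported here. Alternatives were a pseudocount of 1, no filter, a filter at 1 FPKM, all 24 libraries in one fit, rescaling by upper quartile, a replicate block, covariates of striatal and hypothalamus genes, and leaving out each library. For interactions no other filter and no fit of all libraries was run, and the covariates were added after seeing the data. Promoter sequences are RefSeq's, build GRCr8. Of the 4 members, Pdyn and Pomc were matched there.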

Additional observations from a re-analysis of the deposited data

Results flagged for a closer look

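Within the 6 groups, the 4 members gave 24 sets of 4 libraries, and in 2 of them the highest library lay far from the rest, its gap to the nearest divided by the range of the group being above Dixon's critical value for 4 samples. Chance gives about 1.2 such sets in 24. Pomc in F2 PNO replicate 4, at 818 FPKM against 1.67 to 2.33 in the other 3 libraries, had a gap of 0.999 of the range. Pomc in F1 SAL replicate 3, at 2.76 FPKM against 1.49 to 1.62 in the other 3, had a gap of 0.898.

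The difference between IUO and PNO differed between generations at an unadjusted p for Penk (interaction -1.21 on the log2 scale, limma unadjusted p = 0.00941, adjusted p = 0.821) and for Pdyn (-1.19, unadjusted p = 0.00465, adjusted p = 0.793). For both genes, the lowest F1 IUO library exceeded the highest F1 PNO library, and in F2, 2 of 4 IUO libraries lay under the lowest PNO library. In 22 alternatives, of which the 3 with tissue covariates were added after seeing the data, both interactions kept their sign. The replicate block among them could not change it. Each had an unadjusted p under 0.05 (limma) in 21 of 22, of which 16 were fits that left out 1 library. The exception was the covariate of striatal projection neuron genes without Bcl11b, with -0.45 for Penk (unadjusted p = 0.343) and -0.62 for Pdyn (unadjusted p = 0.167). The covariate depended on Bcl11b unevenly between libraries. In F2 PNO the mean log2 level of the list was 4.32 in replicate 1 and 5.74 in replicate 4, and without Bcl11b 5.50 and 6.01. Neither passed after adjustment in any. No other filter and no fit of all 24 libraries was run for interactions.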

How the results depend on the processing

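No member passed the adjusted threshold in any of the 12 tests or under any alternative run. Of 876 alternative log2 fold changes of the members, 816 had the sign of the main value and 60 had the other sign. The other filters, the fit of all 24 libraries and the replicate block leave these values unchanged by construction. Those alternatives could thus not turn a sign, and they count among the 816. The number of reads behind each value is unknown, so that what depth limits could not be measured. The cause of each change of sign was not tested. Penk and Pdyn in F1 IUO against F1 PNO had an unadjusted p under 0.05 in 14 and 15 of 17 alternatives, with adjusted p from 0.104 to 0.531 and from 0.0760 to 0.347, Pnoc and Pomc in F2 IUO against F2 SAL in 15 and 11 of 17, Penk, Pnoc and Pomc in F2 IUO against F1 IUO in 6, 11 and 8 of 17, and Pdyn in F1 PNO against F1 SAL in 8 of 17, with adjusted p from 0.114 to 0.880 (limma).

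With hypothalamus genes as a covariate, the signs turned in F1 IUO against F1 SAL for Penk (-0.16), Pdyn (-0.21), Pnoc (-0.48) and Pomc (-0.85), and for Pnoc in F1 PNO against F1 SAL (0.013), F1 IUO against F1 PNO (-0.90), F2 SAL against F1 SAL (-0.018) and F2 PNO against F1 PNO (-0.040). Pdyn in F2 SAL against F1 SAL turned to 0.0095. With striatal projection neuron genes as a covariate, Pomc turned in F1 IUO against F1 SAL (-0.085) and F1 IUO against F1 PNO (0.33), Penk in F1 PNO against F1 SAL (0.058), Penk and Pdyn in F2 IUO against F2 SAL (0.21 and 0.24) and F2 SAL against F1 SAL (0.064 and 0.11), and Pdyn in F2 PNO against F2 SAL (-0.11). With the same list without Bcl11b, chosen after seeing the data, Penk turned in F1 PNO against F1 SAL (0.16), Pomc in F1 IUO against F1 PNO (0.91), Penk and Pdyn in F2 IUO against F2 SAL (0.51 and 0.53), Pdyn in F2 SAL against F1 SAL (0.025), and Penk, Pdyn and Pomc in F2 IUO against F1 IUO (0.17, 0.28 and -0.16). In the interactions, the same list turned Penk (0.15) and Pdyn (0.39) for IUO against SAL and Pnoc for IUO against PNO (-0.26). Upper-quartile rescaling turned Pomc in F1 IUO against F1 SAL (-0.025).

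Leaving out 1 library turned the sign in these cases, given as the lowest and highest values. In F1 IUO against F1 SAL they were -0.061 and 0.43 for Penk, -0.17 and 0.36 for Pdyn, -0.056 and 0.18 for Pnoc, and -0.31 and 0.24 for Pomc. Pomc gave -0.075 and 0.26 in F1 PNO against F1 SAL, -0.38 and 0.17 in F1 IUO against F1 PNO and -2.10 and 0.86 in F2 IUO against F2 PNO. Pdyn gave -0.35 and 0.072 in F2 IUO against F2 SAL and -0.068 and 0.28 in F2 PNO against F2 SAL, where Pnoc gave -0.095 and 0.19. In F2 SAL against F1 SAL the values were -0.45 and 0.036 for Penk, -0.44 and 0.081 for Pdyn, and -0.036 and 0.13 for Pnoc. Among interactions, Pdyn for IUO against SAL gave -0.52 and 0.023, and Pomc gave -0.054 and 2.90 for PNO against SAL and -2.04 and 0.91 for IUO against PNO.

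No label ties same-numbered libraries to each other, and in none of the 9 comparisons did all 4 pairs correlate above 0.1 in their deviations from the group means. In F1 IUO against F1 PNO 3 of 4 pairs did (0.103, 0.167 and 0.157, against -0.059). With a replicate block, the log2 fold changes are the same by construction, Pdyn in F1 IUO against F1 PNO at 0.93 had an adjusted p of 0.132 (limma), no member passed, and the number of genes passing in that comparison was 2 where it was 23. Over all alternatives that number lay between 0 and 39. For the correlations, a pseudocount of 1 gave -0.0057 for Pdyn and Pnoc, Pearson r over the 24 libraries, where r was 0.003, and 0.53 for striatal projection neuron and Pdyn, Pearson r over the 24 libraries, which then passed, where r was 0.45.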
